A study of Mus musculus with 9 samples.

Results

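NF-kB is a family of dimeric transcription factors, and the genes described here are its 5 subunits (Nfkb1, Nfkb2, Rel, Rela and Relb) and 5 IkB proteins that bind them (Nfkbia, Nfkbie, Nfkbiz, Nfkbid and Bcl3). The 10 genes were taken by name from the 24459 rows of the table of expression values, 1 row each, as the members of this family. The rule itself uses no measured value, although the family was chosen with earlier results of these data known. RNA-seq had been made from splenic B cells of naive mice, aged 8 to 10 weeks and carrying no transgene or treatment, to compare IgD-low B cells (BDL), a population with regulatory activity, with IgD-high follicular (FO) and marginal zone (MZ) B cells. The FO and BDL cells were sorted as B220+ CD23+ CD93- cells of intermediate IgM and CD21 and parted by their surface IgD, and the MZ cells as B220+ CD23- CD93- cells of high IgM and CD21. Each of the 3 subsets has 3 libraries, numbered here as replicates 1 to 3 by the date in the sample labels, and each sort pooled 5 mice, so that differences between single animals were not measured. The labels give the strain as C57/BL6 and the study's methods as B10.PL. Values are FPKM, fragments per kilobase of transcript scaled to the number of mapped fragments, which are corrected for length and can be set side by side between genes.

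In resting B cells most NF-kB dimers are held in the cytoplasm by inhibitory IkB proteins. Signals from the B cell receptor, Toll-like receptors or CD40 lead to IkB kinase activity and to loss of the inhibitor, after which the dimers enter the nucleus and bind kappaB motifs, while BAFF receptor and CD40 can also act through the kinase NIK, processing of the Nfkb2 product and dimers with RelB (the non-canonical route). Several NF-kB subunits and IkB genes are themselves NF-kB targets, so that the family takes part in its own feedback, and c-Rel and the nuclear IkB protein encoded by Nfkbid are known for their roles in B cell activation and in the making of MZ B cells, respectively.

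The kappaB motif was searched on either strand, with overlapping matches joined, in the windows from 250 bases before to 50 after each RefSeq gene start (GRCm38.p6). Of 32851 windows, 8.46% held a match, and of the 27025 genes with a window, 9.55% did. Windows were given for 7 of the 10 genes, with none for Nfkb1, Relb and Nfkbiz, and 6 of the 7 (85.7%) held a match, the exception being Rela. The stretches below show where the letters lie, and each was found once in the older build NCBIM37, the one to which the reads had been aligned. They are shown because they are the sequences through which the family's products could meet its own genes, and a match is a description of letters, not a measured binding site. All are written 5′ to 3′ on the strand of the gene, with the matched letters in capitals.
Nfkbia, chr12:56593635-56593694, minus strand, ending at the base before the annotated gene: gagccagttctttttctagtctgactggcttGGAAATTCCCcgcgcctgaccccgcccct
Nfkbie, chr17:45692518-45692577, plus strand, upstream of the gene: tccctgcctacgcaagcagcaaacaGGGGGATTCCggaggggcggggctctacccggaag
Rel, chr11:23671027-23671086, minus strand, upstream of the gene: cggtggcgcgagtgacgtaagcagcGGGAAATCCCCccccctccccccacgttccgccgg
Nfkb2, chr19:46379167-46379226, plus strand, ending at the base before the gene: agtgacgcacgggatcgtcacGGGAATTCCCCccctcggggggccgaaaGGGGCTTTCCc
Nfkbid, chr7:31207196-31207255, plus strand, in an intron of the annotated gene before a RefSeq start within it: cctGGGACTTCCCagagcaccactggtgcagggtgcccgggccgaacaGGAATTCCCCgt
Bcl3, chr7:20408083-20408112, minus strand, in the untranslated part of an exon: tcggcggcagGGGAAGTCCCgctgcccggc
The Nfkb2 and Nfkbid stretches each hold a pair of separate matches, and the others hold 1.

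The labels of the subsets were checked against markers before the family was read. Genes known to mark B cells were high in every library, with Cd79a between 930.1 and 1762 FPKM, Cd79b between 593 and 1159 and the transcription factor gene Pax5 between 158 and 203. All 6 markers of MZ B cells rose in MZ over FO and 3 of 4 FO markers fell. Of all rows, 14.3% rose and 12.8% fell (adjusted p under 0.05). In BDL over FO 3 of the 6 MZ markers also rose and none fell, against 6.04% and 1.68% of all rows. They were Cd9, Plac8 and S1pr3, with log2 differences of 1.84, 1.23 and 0.85. No FO marker passed there. The plasma cell marker Sdc1 rose from a mean of 1.499 FPKM in FO to 8.467 in BDL. Mki67, on the germinal centre list, rose from 0.5131 to 3.167. Of 6 T cell markers in the table, Cd3e, Cd3g, Cd4, Cd8a and Thy1 were each at most 0.607 FPKM in every library. The kinase gene Lck, the other on that list, ranged from 6.70 to 11.0 FPKM in FO and MZ and from 17.7 to 21.9 in BDL. The replicate 2 libraries, which share a date and whose columns carry a prefix of their own, stood apart in low markers of other cells. Their myeloid genes summed to 9.49, 12.5 and 11.6 FPKM in FO, BDL and MZ, with the excess mainly in Lyz2, S100a8 and S100a9. In replicates 1 and 3 the sums were 2.81 and 2.68 in FO, 6.71 and 6.24 in BDL and 3.64 and 4.10 in MZ. Of this list Emr1 was at 3.13 to 3.88 FPKM in BDL and at most 0.887 elsewhere. Itgam was higher in both BDL and MZ than in FO, with means of 1.55, 1.80 and 0.787. Natural killer cell genes summed to between 5.07 and 5.61 in replicate 2 against 0.898 to 2.32. Sequencing depth is not given, and estimated from the steps of low values it ran from 0.904 to 1.22 times that of FO replicate 1.

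All 10 genes were well expressed. Their means over the 9 libraries lay between the 68.7th percentile (Bcl3) and the 97.2nd percentile (Nfkbid) of the 11597 rows whose mean reached 0.5 FPKM, a minimum that all 10 passed, and every test below was run over those rows. In each subset Nfkbid had the highest mean of the family and Rel the next, although in BDL and MZ the libraries of these genes overlapped. In FO the order then ran Nfkb2, Nfkb1, Nfkbia, Rela, Nfkbie, Relb, Nfkbiz and Bcl3, and in BDL it ran Nfkb1, Nfkb2, Nfkbia, Nfkbie, Rela, Relb, Bcl3 and Nfkbiz. In MZ it ran Nfkb2, Nfkb1, Nfkbie, Nfkbiz, Rela, Relb, Nfkbia and Bcl3. By its mean Nfkbia thus stood above Rela, Nfkbie, Relb and Nfkbiz in FO and BDL and below those 4 genes in MZ. Single libraries departed from this order. In replicate 2 Nfkbia was below Nfkbie in FO (35.7 against 38.0 FPKM) and BDL (42.2 against 46.1), and below Rela in FO (38.6). In MZ replicate 3 it was above Relb (28.4 against 27.1). Neighbours whose libraries overlapped in FO were Rel with Nfkb2, Nfkbia with Rela, Nfkbie with Relb and Nfkbiz with Bcl3. In BDL they were Rel with Nfkb1, Nfkb1 with Nfkb2, Nfkbia with Nfkbie and Nfkbie with Rela, and in MZ Nfkb2 with Nfkb1, Nfkb1 with Nfkbie, Nfkbiz with Rela and Relb with Nfkbia. The other neighbouring pairs did not overlap.

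**Figure D1:**
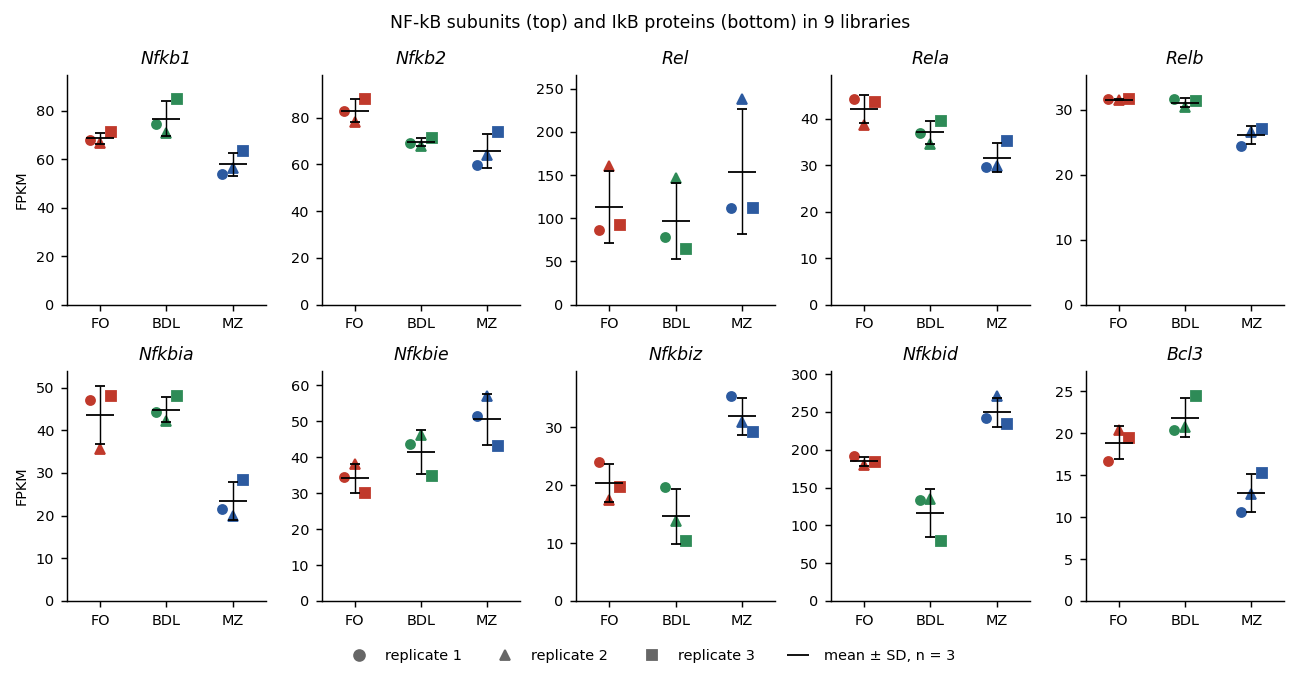
FPKM of the 10 genes (each panel from 0, its own scale) in FO, BDL and MZ libraries, with circles, triangles and squares for replicates 1, 2 and 3 and bars for the mean ± SD of 3 libraries. Nfkbia is low in all 3 MZ libraries, Nfkbid is ordered BDL, FO, MZ with no overlap, and the Rel triangles of replicate 2 lie far above the other points of each subset.

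The clearest difference in the family was between MZ and the other subsets. Set against FO, the MZ cells had less Nfkbia, Bcl3, Rela, Nfkb2 and Relb and more Nfkbie: 5 of the 10 genes fell, against 12.8% of all rows tested, and 1 rose, against 14.3% (limma on log2(FPKM + 0.1), Benjamini-Hochberg adjusted p under 0.05). None of the 6 differed by a fold of 2 or more, which 8.92% of all rows did. Set against MZ, the BDL cells had more Nfkbia, Bcl3, Nfkb1 and Relb and less Nfkbiz and Nfkbid, that is 4 of 10 higher against 16.5% of all rows and 2 of 10 lower against 11.6%. The 2 that fell did so by a fold of 2 or more, against 7.8% of all rows past both thresholds. Between BDL and FO none of the 10 passed in either direction, where 6.04% of all rows were higher in BDL, 1.68% lower and 1.91% past the fold of 2 as well, and at an unadjusted p under 0.05 there were 2, Nfkb2 and Nfkbid, both lower. The median log2 fold change of the 10 genes was -0.26 for MZ over FO, 0.16 for BDL over MZ and -0.10 for BDL over FO, beside -0.01, 0.06 and 0.05 for all rows. These comparisons share libraries, so they are not independent of each other, and in bulk RNA fewer cells that express a gene and less RNA per cell cannot be told apart. In replicates 1 and 3 only, chosen after seeing the data, 1 gene passed in MZ over FO (Nfkbia), 2 in BDL over MZ (Nfkbia and Rel) and 0 in BDL over FO. Of all 11597 rows, 950 were higher and 698 lower in MZ over FO there. For BDL over MZ the all-row counts were 711 and 695, and for BDL over FO 65 and 15.

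**Figure D2:**
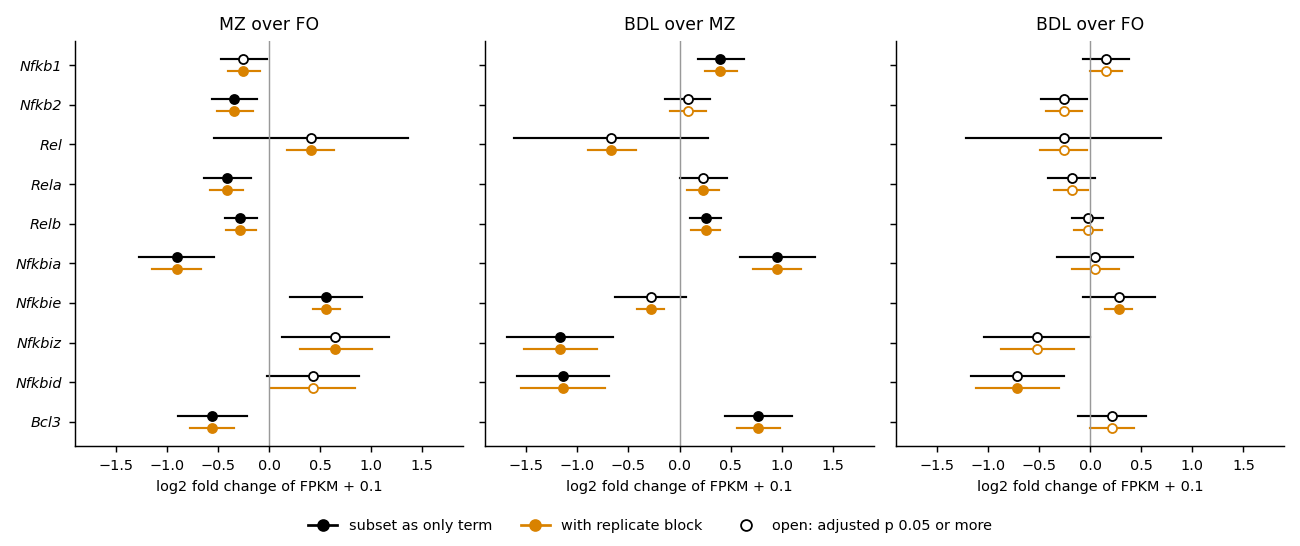
Log2 fold change of FPKM + 0.1 with its 95% interval for each gene in MZ over FO, BDL over MZ and BDL over FO, from the fit with the subset as only term (black) and with the date of the libraries as a replicate block (orange), filled where the adjusted p was under 0.05. The block leaves every estimate in place and narrows the Rel interval most, and Nfkbia is filled in both comparisons with MZ and near 0 between BDL and FO.

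Libraries of one replicate number carry the same date in their labels, so each difference was also fitted with that date as a replicate block. In this paired fit 9 of the 10 genes passed in MZ over FO (all but Nfkbid), against 38.8% of all rows, and 9 in BDL over MZ (all but Nfkb2), against 42.7%. In BDL over FO 2 passed, Nfkbie and Nfkbid, against 20.5% of all rows. The blocked value is given below wherever it changed a call.

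Among the subunits, the DNA-binding partners p50 and p105 come from Nfkb1 (ENSMUSG00000028163.8, chr3:135247619-135354511, minus strand, NCBIM37 as for all positions below). Nfkb1 stood at 68.0, 66.8 and 71.0 FPKM in FO replicates 1 to 3, at 74.6, 70.7 and 84.8 in BDL and at 54.1, 56.4 and 63.2 in MZ. The MZ libraries lay below all others, while those of BDL and FO overlapped by 1 library. It rose in BDL over MZ by 1.32-fold, a log2 difference of 0.40 ± 0.097 (SE, adjusted p = 0.0163), a call that was lost without MZ replicate 1 or 2 (adjusted p = 0.0521 to 0.0600) and with the 6 BDL and MZ libraries alone in the fit (0.0501). Against FO the MZ difference was -0.25 on the log2 scale (adjusted p = 0.0988, and 0.0246 with the replicate block), passing also without BDL or MZ replicate 3 (adjusted p = 0.0473 to 0.0497). BDL over FO was 0.16 with a 95% interval from -0.07 to 0.38.

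Nfkb2 (ENSMUSG00000025225.7, chr19:46379227-46386580, plus strand, overlapping Psd on the other strand at its end) encodes p100, which restrains RelB until it is cut to p52 on the non-canonical route. It was at 82.8, 78.1 and 87.9 FPKM in FO, 69.2, 67.9 and 71.2 in BDL and 59.7, 63.9 and 73.7 in MZ. The FO libraries were the 3 highest, with MZ and BDL overlapping beneath them. The fall in MZ from FO was 1.26-fold, a log2 difference of -0.34 ± 0.096 (SE, adjusted p = 0.0328), and did not pass without FO replicate 1 or 3 or MZ replicate 1 or 2 (adjusted p = 0.0870 to 0.112), with 6 libraries (0.0522) or with a correction for the GC content and length of transcripts, chosen after seeing the data (-0.23, adjusted p = 0.152). BDL differed from FO by -0.26 (95% interval -0.48 to -0.03, adjusted p = 0.149), and from MZ by 0.08 (-0.14 to 0.30).

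Rela (ENSMUSG00000024927.6, chr19:5637483-5648130, plus strand) encodes p65, the activating partner of p50 in the canonical dimer. Its values were 44.2, 38.6 and 43.6 FPKM in FO, 37.0, 34.7 and 39.5 in BDL and 29.7, 29.9 and 35.3 in MZ. No MZ library reached the lowest FO library, and BDL lay between them and overlapped with each. The fall from FO to MZ was 1.33-fold (log2 difference -0.41 ± 0.10, adjusted p = 0.0166), a call that was lost without FO replicate 1 or 3 or MZ replicate 1 or 2 (adjusted p = 0.0553 to 0.0660) and with the GC and length correction (0.0752). The BDL difference from MZ, 0.23, had an adjusted p of 0.125 0.0347 with the replicate block and 0.0406 without MZ replicate 3. BDL over FO was -0.18 (95% interval -0.41 to 0.05).

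Relb (ENSMUSG00000002983.9, chr7:20191566-20214787, minus strand), the partner of p52, varied least in the family, 1.29-fold between its lowest and highest library. FO libraries held 31.6, 31.5 and 31.6 FPKM and BDL libraries 31.6, 30.4 and 31.3, against 24.5, 26.6 and 27.1 in MZ. FO and BDL overlapped closely and all 3 MZ libraries were lower. It fell from FO to MZ by 1.21-fold (log2 difference -0.28 ± 0.068, adjusted p = 0.0172) and rose in BDL over MZ by 1.19-fold (0.26 ± 0.068, adjusted p = 0.0239). The first call was lost without FO replicate 1 or 3 or MZ replicate 1 (adjusted p = 0.0548 to 0.0588) and with the GC and length correction (0.0791). The other was lost without BDL or MZ replicate 1 (adjusted p = 0.0622 to 0.0759), with 6 libraries (0.0625), with the GC and length correction (0.0840) and with upper quartile scaling (0.14, adjusted p = 0.123). The BDL difference from FO was -0.02, with a 95% interval from -0.18 to 0.13.

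Rel (ENSMUSG00000020275.8, chr11:23641514-23670970, minus strand) encodes c-Rel, the subunit most tied to activation of mature B cells. It was at 85.9, 161 and 92.2 FPKM in FO, 78.1, 147 and 64.9 in BDL and 112, 238 and 112 in MZ. In every subset replicate 2 was the highest library by far, and the ranges of the 3 subsets overlapped. With the subset as only term no difference passed: MZ over FO was 0.41 ± 0.41 (SE, log2, adjusted p = 0.523), BDL over MZ -0.67 (adjusted p = 0.271) and BDL over FO -0.26 (95% interval -1.21 to 0.69, adjusted p = 0.725). Within each date, however, MZ was above FO by 0.39, 0.56 and 0.28 and BDL differed from MZ by -0.52, -0.69 and -0.78 on the log2 scale. In the paired fit the rise in MZ over FO (0.41 ± 0.095, adjusted p = 0.0178) and the fall in BDL from MZ (-0.67 ± 0.095, adjusted p = 0.00271) passed, and BDL over FO did not (adjusted p = 0.105). In replicates 1 and 3 alone, an alternative chosen after seeing the data, the BDL fall from MZ passed without a block as well (-0.65, adjusted p = 0.0402), and MZ over FO did not (0.33, adjusted p = 0.174). Without FO replicate 2 the BDL difference from FO turned to 0.03.

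Replicate 2 held 1.81, 2.06 and 2.12 times the Rel FPKM of the mean of the other libraries in FO, BDL and MZ. Of the 11597 rows tested, 64 (0.552%) had a lowest excess over the 3 subsets that was at least that of Rel, 0.85 on the log2 scale. The other members of the family ranged from 0.751 to 1.31 times. Genes closest to Rel over the 9 libraries, looked up after its values were seen, were Trp53inp2 (Pearson r = 0.989), Crem (0.974), a cAMP-responsive transcription factor, and Iba57 (0.970), given as a description with no test. Crem stood at 22.2, 16.5 and 30.2 FPKM in replicate 2 of FO, BDL and MZ and at 5.72 to 11.6 in the other libraries. The myeloid and natural killer cell sums given above moved with the same date, and their part in the Rel values was not tested.

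**Figure D3:**
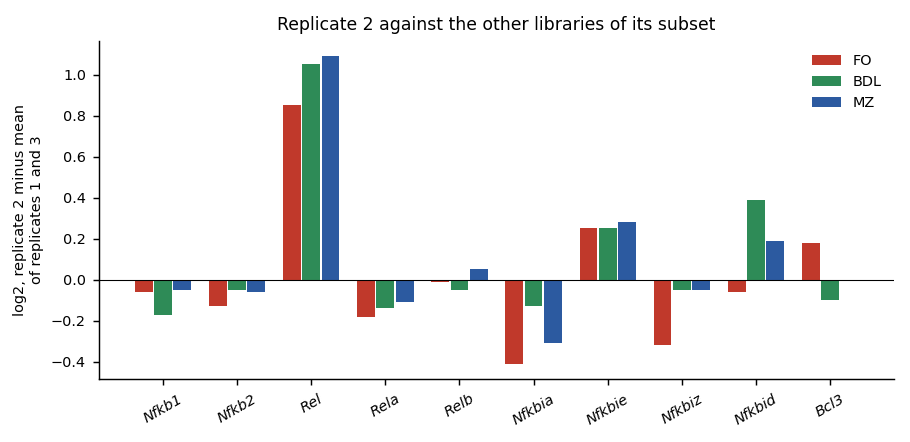
Log2 difference of replicate 2 from the mean of replicates 1 and 3 of its subset, for each gene in FO, BDL and MZ. Rel reaches 0.85, 1.05 and 1.09, and the bars of the other genes stay between -0.41 and 0.39.

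The IkB proteins fall into those that hold dimers in the cytoplasm and those that act on DNA-bound dimers in the nucleus. Of the first kind, Nfkbia (ENSMUSG00000021025.7, chr12:56590398-56593634, minus strand) encodes IkB alpha, the inhibitor that is lost and remade fastest after a signal. It stood at 47.0, 35.7 and 48.1 FPKM in FO, 44.3, 42.2 and 47.9 in BDL and 21.7, 20.0 and 28.4 in MZ. Every MZ library was below every FO and BDL library, and FO and BDL overlapped. It fell from FO to MZ by 1.87-fold (log2 difference -0.90 ± 0.16, adjusted p = 0.00376), and rose in BDL over MZ by 1.94-fold (0.95 ± 0.16, adjusted p = 0.00306). Both calls held in 20 of 20 alternatives tried. The BDL difference from FO was 0.05, with a 95% interval from -0.32 to 0.42, and it turned negative in 5 alternatives, reaching -0.09 without FO replicate 2. Without that library the fall from FO to MZ was -1.04.

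Nfkbie (ENSMUSG00000023947.7, chr17:45692665-45700118, plus strand) encodes IkB epsilon, which holds c-Rel and p65 dimers and is prominent in B cells. It ran the other way, at 34.4, 38.0 and 29.9 FPKM in FO, 43.5, 46.1 and 34.7 in BDL and 51.3, 57.1 and 43.0 in MZ. Within each date the order was FO, BDL, MZ, and over all libraries only FO and MZ were separate. It rose in MZ over FO by 1.48-fold (log2 difference 0.56 ± 0.15, adjusted p = 0.0269), a call that was lost without FO replicate 1 or 3 or MZ replicate 1 or 2 (adjusted p = 0.0742 to 0.102). BDL over FO was 0.28 ± 0.15 (adjusted p = 0.308), and BDL over MZ -0.28 ± 0.15 (adjusted p = 0.204). With the replicate block the rise in BDL over FO (0.28 ± 0.054, adjusted p = 0.0203) and the fall in BDL from MZ (-0.28 ± 0.054, adjusted p = 0.00752) passed.

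Nfkbia and Nfkbie together came to 77.7 ± 3.83 FPKM in FO, 86.3 ± 3.17 in BDL and 73.8 ± 2.97 in MZ (SD, n = 3). The ratio of Nfkbia to Nfkbie was 1.37, 0.938 and 1.61 in FO replicates 1 to 3, 1.02, 0.916 and 1.38 in BDL and 0.422, 0.350 and 0.660 in MZ. It was below 1 in every MZ library and lower there than in any FO or BDL library. Since Nfkbia was low and Nfkbie high in MZ, this separation adds nothing to their own values.

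Of the nuclear kind, Nfkbid (ENSMUSG00000036931.8, chr7:31206751-31213765, plus strand) encodes IkBNS, without which mice make few MZ B cells. It was at 191, 179 and 183 FPKM in FO, 134, 135 and 79.6 in BDL and 242, 272 and 235 in MZ. The subsets were ordered BDL, FO, MZ with no overlap between any of them, and BDL replicate 3 was far below the other BDL libraries. BDL fell from MZ by 2.20-fold (log2 difference -1.14 ± 0.20, adjusted p = 0.00348). From FO the BDL difference was -0.71 ± 0.20, or 1.63-fold, with an adjusted p of 0.0673, and it passed with the replicate block (adjusted p = 0.0346) and without BDL replicate 3 (-0.46, adjusted p = 0.0323). MZ over FO was 0.43 ± 0.20 (adjusted p = 0.148, and 0.0899 with the replicate block), and passed without BDL replicate 3 (adjusted p = 0.00640). That rise also passed with the FO and MZ libraries alone in the fit, and with the GC and length correction, with or without the block. Nfkbid made up 61.2 ± 0.37% of the summed FPKM of the 5 IkB genes in FO, 48.0 ± 6.58% in BDL and 67.7 ± 1.29% in MZ.

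Nfkbiz (ENSMUSG00000035356.9, chr16:55811488-55839012, minus strand) encodes IkB zeta, which is induced by Toll-like receptor signals and helps to turn on secondary NF-kB targets. It held 23.95, 17.4 and 19.7 FPKM in FO, 19.7, 13.8 and 10.3 in BDL and 35.5, 31.0 and 29.2 in MZ. The MZ libraries were the 3 highest, and FO and BDL overlapped. BDL fell from MZ by 2.25-fold (log2 difference -1.17 ± 0.23, adjusted p = 0.00612). MZ over FO was 0.65 ± 0.23 (adjusted p = 0.0673, 0.0152 with the replicate block, and 0.0224 to 0.0260 without BDL replicate 1 or 3), and BDL over FO -0.52 ± 0.23 (adjusted p = 0.209), lower in 3 of 3 dates. The MZ rise over FO also passed with the FO and MZ libraries alone, and with the GC and length correction and the block. Neither Nfkbiz nor Nfkbid differed by a fold of 2 between BDL and MZ once BDL replicate 3 was left out (-0.94 and -0.89), although both still passed on the adjusted p (0.00992 and 0.000520).

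Bcl3 (ENSMUSG00000053175.9, chr7:20393811-20408119, minus strand) encodes a partner of p50 and p52 homodimers. Its values were 16.7, 20.4 and 19.4 FPKM in FO, 20.3, 20.8 and 24.5 in BDL and 10.7, 12.7 and 15.2 in MZ. MZ was below both other subsets in every library, unlike the other nuclear IkB genes, and BDL overlapped with FO. It fell from FO to MZ by 1.47-fold (log2 difference -0.56 ± 0.15, adjusted p = 0.0231) and rose in BDL over MZ by 1.71-fold (0.77 ± 0.15, adjusted p = 0.00538). The fall from FO was lost without FO replicate 2 or 3 or MZ replicate 1 or 2 (adjusted p = 0.0628 to 0.0829). BDL over FO was 0.21 (95% interval -0.12 to 0.55). Bcl3 lies across from Gm16175 and Gm16174 on the plus strand. If the reads were not strand specific, as the labels describe them, reads of these genes could not be told apart. The study's methods name a stranded kit, and which of the descriptions holds was not tested. The same applies to Nfkb2 and Psd.

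Early response genes, which are known to rise when cells are handled, were read beside the nuclear IkB genes. The 11 on the list (Fos, Fosb, Jun, Junb, Egr1, Ier2, Dusp1, Nr4a1, Atf3, Zfp36 and Btg2) summed to between 2356 and 2769 FPKM in FO, 1805 and 2154 in BDL and 2467 and 3557 in MZ. None of the 11 passed in BDL over FO, 4 fell in BDL from MZ, and 3 rose and 2 fell in MZ over FO. Of all rows, 11.6% were lower in BDL over MZ, and for MZ over FO 14.3% rose and 12.8% fell. In the paired fit 1 of the 11 was higher and 5 lower in BDL than in FO, where 20.5% of all rows passed in either direction. Their part in the Nfkbid and Nfkbiz values was not tested.

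The summed FPKM of the subunits overlapped between the subsets, and that of the IkB genes did not. Nfkbid, itself without overlap, made up 40.4 to 69.2% of the IkB sum in the single libraries. Nfkbia and Bcl3 went the other way, lowest in MZ, so the sum does not speak for the IkB genes as a class. The 5 subunits came to 338 ± 33.4 FPKM in FO, 311 ± 34.4 in BDL and 335 ± 70.4 in MZ (SD, n = 3), with replicate 2 the highest of each subset. The 5 IkB genes came to 302 ± 11.2 in FO, 239 ± 36.4 in BDL and 368 ± 21.9 in MZ (BDL at most 262, FO from 291 to 313, MZ at least 350.3). Rel made up 32.9 ± 8.64% of the subunit FPKM in FO, 30.4 ± 10.3% in BDL and 44.5 ± 11.4% in MZ, with replicate 2 the highest of each subset (42.8, 41.9 and 57.4%) and the subsets overlapping. The nuclear IkB genes Nfkbid and Nfkbiz together came to 4.58, 5.51 and 4.22 times Nfkbia in FO, 3.47, 3.53 and 1.88 times in BDL and 12.8, 15.2 and 9.30 times in MZ. That ratio was above 9 in every MZ library and below 6 in all others. It leaves out Bcl3, and since Nfkbid and Nfkbiz were high and Nfkbia low in MZ, this separation adds nothing to their own values. The sum of the 5 IkB genes over that of the 5 subunits ran from 0.7736 to 1.002 in FO. It ran from 0.6756 to 0.9014 in BDL and from 0.9463 to 1.288 in MZ, so FO overlapped with both other subsets. Transcript levels do not give the amount of protein or of nuclear NF-kB, neither of which was measured.

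**Figure D4:**
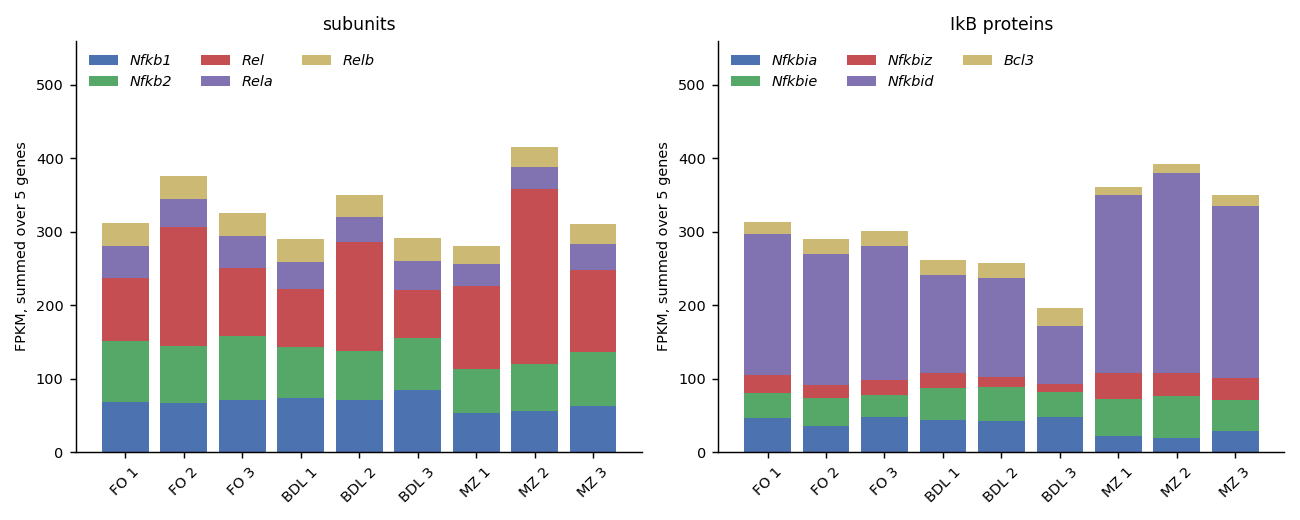
FPKM of the 5 subunits (left) and the 5 IkB genes (right), stacked from 0 for each of the 9 libraries. The subunit stacks are highest in replicate 2 through Rel, and the IkB stacks are highest in MZ through Nfkbid, where the Nfkbia layer is thin.

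The genes whose pattern was most like those of Nfkbiz, Nfkbid and Nfkbia were found over the 9 libraries by the Pearson correlation of log2(FPKM + 0.1), as a description in which libraries of a subset share their source. Closest to Nfkbiz were Prox2 (r = 0.996), Evi2b (0.992) and Tnfsf10 (0.984), the gene of the death ligand TRAIL. Closest to Nfkbid were Plekhm2 (0.996), Nudt8 (0.988) and Nbeal2 (0.983), and closest to Nfkbia were Gsk3a (0.997), a kinase gene, Cactin (0.993) and Kat8 (0.990), a histone acetyltransferase gene. Evi2b ranged from 56.4 to 63.2 FPKM in MZ, 36.0 to 45.7 in FO and 23.2 to 37.0 in BDL. Prox2 and Tnfsf10 were low, at no more than 3.30 FPKM in any library.

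The wider pathway was read from 7 lists of 62 genes, of which 59 were tested. In MZ over FO 17 were higher and 9 lower, against 14.3% and 12.8% of all rows. In BDL over MZ 7 were higher and 20 lower, against 16.5% and 11.6%. In BDL over FO 2 were higher and 3 lower, against 6.04% and 1.68%. With the replicate block the counts were 19 and 15, 12 and 23, and 2 and 6. In that fit 38.8%, 42.7% and 20.5% of all rows passed in either direction. In replicates 1 and 3 only the pathway counts were 12 and 4, 4 and 13, and 1 and 0. Of all 11597 rows, 950 were higher and 698 lower in MZ over FO there. For BDL over MZ these were 711 and 695, and for BDL over FO 65 and 15. With the GC and length correction and the block, 2 pathway genes were higher and 20 lower in BDL over FO. Of the 9927 rows in that fit, 1405 were higher and 1233 lower. Leaving out FO replicate 1 or 3 gave 10 pathway genes higher with 5 or 4 lower in MZ over FO, and 0 lower in BDL over FO. Over all rows MZ over FO then had 1200 or 1186 higher and 1002 or 922 lower. In BDL over FO 52 or 47 rows were lower. The medians of the 59 log2 fold changes were 0.04, -0.07 and -0.05 with all libraries. Of the 17 known NF-kB target genes tested, 11 rose and 2 fell in MZ over FO (median 0.93), 3 rose and 12 fell in BDL from MZ (median -0.96), and 2 rose and 2 fell in BDL over FO (median -0.12). The 2 that rose in BDL over FO were Ccnd2 and Cd80, and the 2 that fell Traf1 and Gadd45b. Ccnd2 was at 5.27 FPKM in FO, 24.5 in BDL and 10.5 in MZ. Its BDL difference from FO was 2.21 ± 0.14 (SE, log2, adjusted p = 1.36e-04), and that of Gadd45b -0.55 ± 0.12 (adjusted p = 0.0342). For all rows 14.3% were higher in MZ than in FO and 11.6% lower in BDL than in MZ. In replicates 1 and 3 only, 9 targets rose in MZ over FO and 10 fell in BDL from MZ.

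Among those targets Myc, the growth regulator, rose from 126 ± 12.8 FPKM in FO to 430 ± 77.2 in MZ (SD, n = 3; log2 difference 1.76 ± 0.14, adjusted p = 4.15e-05), and BDL held 106 ± 3.17. Ccl3, a chemokine gene, stood at 3.99 ± 0.67 in FO, 3.58 ± 0.57 in BDL and 25.4 ± 6.28 in MZ, a rise of 2.63 ± 0.20 over FO (adjusted p = 4.10e-05). Cd80, a costimulatory ligand for T cells, stood at 0.250 ± 0.051 FPKM in FO, 0.699 ± 0.16 in BDL and 2.72 ± 0.46 in MZ. It rose in both, by 1.18 ± 0.22 in BDL (adjusted p = 0.0170) and 3.0 ± 0.22 in MZ (adjusted p = 2.77e-05) on the log2 scale, from a low level in FO. The BDL call was lost with a constant of 1 (adjusted p = 0.0526) and without BDL replicate 1 or 2 or FO replicate 2 or 3 (adjusted p = 0.0519 to 0.0639). Traf1, an adaptor that is induced by NF-kB, went opposite ways: 11.4 ± 1.14 FPKM in FO, 5.34 ± 1.61 in BDL and 33.5 ± 1.45 in MZ. It fell in BDL from FO (log2 difference -1.12 ± 0.21, adjusted p = 0.0180) and rose in MZ over FO (1.55 ± 0.21, adjusted p = 8.78e-04). The fall was lost with the 6 BDL and FO libraries alone (adjusted p = 0.0623) and without FO replicate 1 or 3 (adjusted p = 0.0720 to 0.0812), and the rise held in 20 of 20 alternatives.

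On the route from the B cell receptor to the IkB kinases, 3 of 7 genes rose and 3 fell in MZ over FO, against 14.3% and 12.8% of all rows, and none of the 7 passed in BDL over FO. Without FO replicate 1 or 3 or MZ replicate 2 the counts were 1 and 2. The adaptor Blnk rose from 128 ± 2.60 to 215 ± 19.0 FPKM (log2 difference 0.75 ± 0.093) and the paracaspase Malt1 from 89.5 ± 13.1 to 132 ± 18.1 (0.56 ± 0.14), the latter lost without those same libraries (adjusted p = 0.0601 to 0.0763). The kinases Btk and Prkcb fell, from 85.9 ± 4.72 to 63.8 ± 2.26 (-0.43 ± 0.078) and from 99.3 ± 5.21 to 62.7 ± 5.52 (-0.67 ± 0.13). With the replicate block Malt1 was lower in BDL than in FO as well (-0.43, adjusted p = 0.00853), the only gene of the 7 to pass between those subsets.

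Of the 9 IkB kinases and activators, Ikbke, an inducible kinase related to the IkB kinases, rose in MZ over FO, from 5.58 ± 0.58 to 14.0 ± 3.01 FPKM (log2 difference 1.29 ± 0.34, adjusted p = 0.0229). That call, 1 of 9 against 14.3% of all rows, was lost without any 1 FO replicate or MZ replicate 1 or 2 (adjusted p = 0.0532 to 0.0837). In BDL over MZ 2 of the 9 fell, against 11.6% of all rows. Ikbke was lower by -1.95 ± 0.34 (adjusted p = 0.00347). Chuk, the IkB kinase alpha of the non-canonical route, fell from 31.1 ± 1.79 in MZ to 24.2 ± 1.40 in BDL (-0.36 ± 0.084, adjusted p = 0.0134). Both calls were lost only with replicates 1 and 3 (adjusted p = 0.0649 and 0.0840). On the Toll-like receptor route 1 of 6 passed in MZ over FO: Irak2 fell from 32.9 ± 0.38 to 26.2 ± 0.45 (-0.33 ± 0.094, adjusted p = 0.0335), where 12.8% of all rows were lower. It was lost without any 1 FO or MZ replicate (adjusted p = 0.0675 to 0.0943) and with upper quartile scaling (0.102).

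On the non-canonical route 3 of 7 tested genes fell in MZ from FO, against 12.8% of all rows, and none rose. The count was 1 without FO replicate 3 or MZ replicate 1. Tnfrsf13c, the BAFF receptor, fell from 107 ± 14.4 to 64.6 ± 13.1 FPKM (log2 difference -0.74 ± 0.18, adjusted p = 0.0174), and Traf3, which keeps NIK low, from 26.2 ± 1.01 to 19.4 ± 1.40 (-0.44 ± 0.12, adjusted p = 0.0293). Tnfrsf13c did not pass without FO replicate 3 or MZ replicate 1 or 2 (adjusted p = 0.0620 to 0.0711), nor Traf3 without any 1 FO replicate or MZ replicate 1 or 3 (0.0637 to 0.0959) or with upper quartile scaling (0.0776). Birc3, a ubiquitin ligase that also restrains NIK, fell from 129 ± 9.46 in FO to 83.4 ± 3.61 in MZ (-0.63 ± 0.10, adjusted p = 0.00265) and to 94.0 ± 10.6 in BDL (-0.46 ± 0.10, adjusted p = 0.0348). The fall in MZ held in 20 of 20 alternatives, and that in BDL was lost in 7 of 9 fits with a library left out, all but those without BDL replicate 2 or MZ replicate 3 (adjusted p = 0.0535 to 0.108), and with 6 libraries (0.0703). Cd40 was at 50.4 ± 3.69 in FO, 37.4 ± 1.85 in BDL and 56.98 ± 8.17 in MZ. It fell in BDL from MZ (-0.60 ± 0.11, adjusted p = 0.00560), and against FO the BDL difference of -0.43 had an adjusted p of 0.0590 and of 0.0354 with the replicate block.

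Among 10 negative regulators 2 rose in MZ over FO, against 14.3% of all rows, and none fell. Pdlim2, which targets p65 for breakdown, rose from 28.0 ± 2.08 to 52.0 ± 8.17 FPKM (log2 difference 0.88 ± 0.13, adjusted p = 0.00122), and Cyld, a deubiquitinase, from 19.5 ± 0.92 to 25.8 ± 2.95 (0.40 ± 0.11, adjusted p = 0.0307). Cyld did not pass without any 1 FO replicate or MZ replicate 1 or 3 (adjusted p = 0.0527 to 0.107). None of the 10 passed in BDL over FO. The 3 subunits of the linear ubiquitin ligase passed in no comparison, and 1 was lower in MZ than in FO with the replicate block.

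**Figure D5:**
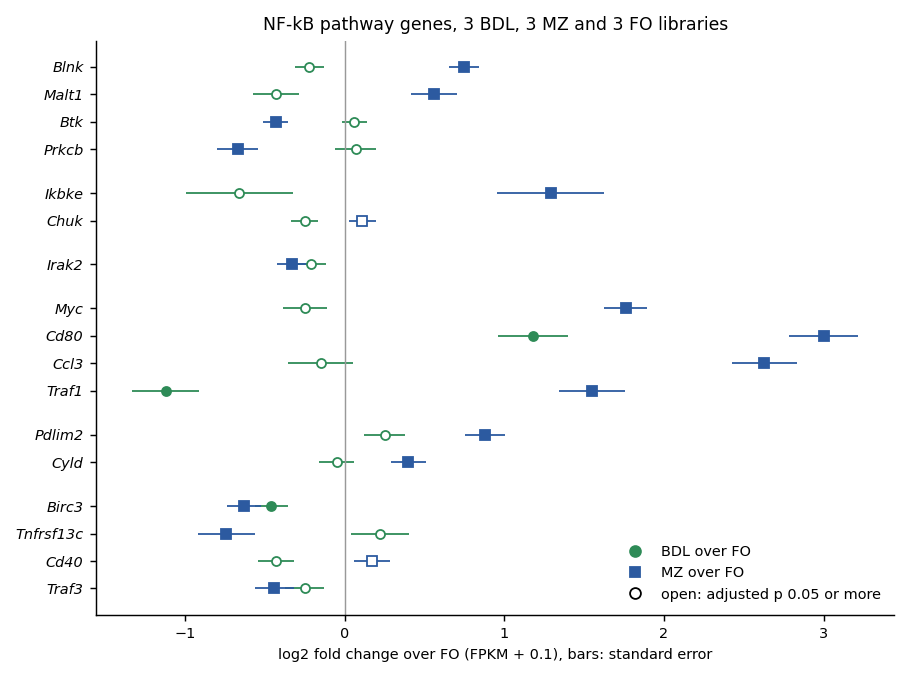
Log2 fold change over FO of FPKM + 0.1, with its standard error, for the named genes of the 7 pathway lists in BDL (green circles) and MZ (blue squares), filled where the adjusted p was under 0.05. Groups from top to bottom are the B cell receptor route, IkB kinases, Toll-like receptor route, target genes, negative regulators and the non-canonical route. BDL is filled for Cd80, Traf1 and Birc3, and MZ for all but Chuk and Cd40.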

How the data were processed

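Reads had been aligned with TopHat2 2.1.0 (genome build mm9), and the authors deposited an FPKM for each gene and library made with Cufflinks, whose version and annotation are not given in the sources used here. The labels call the reads single-end and not strand specific. The study's methods name a stranded kit and describe a separate read file for each direction, so they differ from the labels on both points. The deposited FPKM columns, which sum to between 446033 and 517208, were used without further scaling, and the table holds no counts, so that precision by depth is not known. Results of Cuffdiff were not used.

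A constant of 0.1 was added to each FPKM before taking log2. Rows whose mean reached 0.5 FPKM, 11597 of 24459, entered a linear model in limma 3.58.1 (R 4.3.3, moderated with a mean-variance trend) that holds the 9 libraries and a term for the subset alone. P-values are two-sided and adjusted by the Benjamini-Hochberg method over all rows tested. A gene passed at an adjusted p under 0.05, and the fold of 2 was that of the study. The fold changes understate changes of low genes. The steps were tested on simulated data.

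The pairing of libraries comes from the date shared in their labels. The correlation of their deviations from the subset means ran from -0.062 to 0.147 between BDL and FO, 0.008 to 0.024 between MZ and FO and 0.100 to 0.244 between BDL and MZ. The study names separate sorts, and p-values measure the spread between these pools.

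The genes, pathway lists and markers were chosen with earlier results of these data known. From each pathway list, the 4 genes with the smallest adjusted p among those that passed were named, and for the 3 members with the largest changes, the 3 rows of most similar pattern. Outside that rule, Ccnd2 and Gadd45b were named as the other targets that passed in BDL over FO. Positions come from GENCODE M1 on NCBIM37 and sequences from RefSeq (GRCm38.p6). Alternatives were other constants and minimums, the replicate block, 6 libraries, upper quartile scaling, no trend, each library left out, and, chosen after seeing the data, replicates 1 and 3 only and a correction for GC content and length. Low marker sums were read over the whole list, also below the minimum. Figures were drawn with matplotlib 3.10.9.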

Additional observations from a re-analysis of the deposited data

How the results depend on the processing

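With 3 pools a subset, small differences were beyond this design, and a missed threshold does not show equal levels. Nfkbia passed in both comparisons with MZ in 20 of 20 alternatives, and Nfkbiz, Nfkbid and Bcl3 in BDL over MZ in 19 of 20, lost with replicates 1 and 3 only. Of 10 members, 0 passed in BDL over FO, but 2 with the replicate block, 1 with upper quartile scaling, 1 with the GC and length correction, 4 with that correction and the block, and 0 to 1 with a library left out (Nfkbid without BDL replicate 3). In MZ over FO 6 passed, but 4 with the GC and length correction (Nfkb2, Rela and Relb lost, Nfkbid gained), 10 with that correction and the block, 9 with the block alone, 1 with replicates 1 and 3 only, and 1 to 9 with a library left out (2 without FO replicate 1 or MZ replicate 2, 1, Nfkbia, without FO replicate 3 or MZ replicate 1, 9 without BDL replicate 3). Past the fold of 2 were 0 to 1 (Nfkbia without FO replicate 2 or MZ replicate 3). With 6 libraries in MZ over FO, Nfkb2 was lost and Nfkbiz and Nfkbid were gained. The all-row calls in MZ over FO moved too. Of 11597 rows, 2000 were higher and 1938 lower without BDL replicate 3, and 1186 and 922 without FO replicate 3. With the GC and length correction and the block, 2058 of 9927 rows were higher and 2805 lower. In BDL over FO that fit had 1405 rows higher and 1233 lower. In BDL over MZ 6 passed, but 9 with the block, 5 with upper quartile scaling or the GC and length correction (Relb lost), 4 with 6 libraries (Nfkb1 and Relb lost), 2 with replicates 1 and 3 only, and 4 to 7 with a library left out. Past the fold of 2 were 2, but 0 with replicates 1 and 3 only and 0 to 3 with a library left out (0 without BDL replicate 3, 3 without MZ replicate 3).

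No value that passed changed its direction. Of those that did not pass, Nfkbia in BDL over FO turned to -0.01 with upper quartile scaling, -0.09 without FO replicate 2 (range -0.09 to 0.13 with a library left out), -0.07 with the GC and length correction, with or without the block, and -0.05 with replicates 1 and 3 only. Nfkb2 in BDL over MZ turned to -0.03 with upper quartile scaling, and Rel in BDL over FO to 0.03 without FO replicate 2 (range -0.61 to 0.03 with a library left out). The cause was not tested.

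Over all rows, 701 were higher and 195 lower in BDL over FO, but 1806 and 572 with the replicate block, and 65 and 15 with replicates 1 and 3 only. For MZ over FO 1658 and 1483 became 950 and 698 with those replicates, and for BDL over MZ 1909 and 1346 became 3043 and 1909 with the block and 711 and 695. The share of passing rows that were higher moved from 58.6% to 44.9% in BDL over MZ with upper quartile scaling, which shifted the median of all rows from 0.06 to -0.05, and from 78.2% to 60.3% in BDL over FO with the GC and length correction (53.3% with the block), which covered 85.6% of the rows and all 10 members.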
